A study of Homo sapiens with 96 samples.

Results

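The genes described here are 39 reported targets of p53, taken as a list of symbols and looked up among the 19438 genes of the deposited tables, where all 39 were present. The cells were of the osteosarcoma line U2-OS, which is known to keep a functional p53 protein and here carried a luciferase reporter under the Per2 promoter. Total RNA and ribosome footprints, the mRNA pieces protected by translating ribosomes, were sequenced over 1 circadian day. Knockdown cells had received 120 pmol per plate of a mix of 5 siRNAs against Bmal1 (ARNTL in the files) after seeding 0.56 M cells. Wild-type cells had received no siRNA and were seeded at 2.25 M cells. Both were synchronised with 0.1 µM dexamethasone and collected every 2 h at 12 circadian times, CT 0 to CT 22, starting 24.5 h after synchronisation. Cycloheximide at 100 µg/mL was given to hold ribosomes on the mRNA. Each treatment, time and assay has 2 replicates, so each treatment has 24 libraries per assay. The labels name no control siRNA, so loss of BMAL1, transfection and seeding density cannot be told apart in any difference below.

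p53 is a transcription factor that is kept low by its ubiquitin ligase MDM2 and is stabilised when DNA is damaged or growth is disturbed. It binds a pair of short half-sites in or near its target genes, whose products halt the cell cycle, repair DNA, adjust metabolism, or start apoptosis, and some of which feed back on p53 itself. BMAL1 pairs with CLOCK and binds E-boxes, whose core form is CACGTG.

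Both motifs were looked for, on both strands, in RefSeq promoter windows (GRCh38.p14) of 300 bases, from 250 before to 50 after each gene start. All 39 members matched a RefSeq gene, and 30 of them had 43 windows. The p53 half-site consensus was present in 7 of the 43 windows (16.3%), compared with 6.63% of all 35116 windows. Only the DDB2 window held a pair of half-sites with a spacer of at most 13 bases, an arrangement found in 10 of all windows (0.0285%). A match describes letters in the window, not binding, and p53 sites outside these windows were not looked for. The DDB2 window is shown whole because it carries the pair, in capitals, 5 and 16 bases after the gene start:
DDB2 (chr11:47214724-47215023, plus strand): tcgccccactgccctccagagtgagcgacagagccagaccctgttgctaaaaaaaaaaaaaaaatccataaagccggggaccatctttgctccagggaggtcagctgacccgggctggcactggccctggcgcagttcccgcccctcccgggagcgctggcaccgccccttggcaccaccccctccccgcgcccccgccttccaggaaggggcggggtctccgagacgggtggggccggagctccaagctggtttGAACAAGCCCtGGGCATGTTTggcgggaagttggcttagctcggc
The single half-sites of 5 further members whose values are given below are shown in slices of 60 bases, 5′ to 3′ on the gene's strand, with the half-site in capitals. They begin 11 bases before the gene start in FDXR, 49 in SESN1, 122 in FAS, 59 in RPS27L and 132 in PLK2. The seventh window belongs to AEN.
FDXR (chr17:74872971-74873030, minus strand): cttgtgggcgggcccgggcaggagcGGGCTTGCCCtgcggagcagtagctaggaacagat
SESN1 (chr6:109009003-109009062, minus strand): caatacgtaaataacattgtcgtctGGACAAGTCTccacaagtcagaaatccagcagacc
FAS (chr10:88991284-88991343, plus strand): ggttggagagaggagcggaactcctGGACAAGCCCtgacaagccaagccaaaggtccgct
RPS27L (chr15:63157502-63157561, minus strand): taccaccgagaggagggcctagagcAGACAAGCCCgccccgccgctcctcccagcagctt
PLK2 (chr5:58460184-58460243, minus strand): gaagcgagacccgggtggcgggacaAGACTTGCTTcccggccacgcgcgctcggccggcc
An E-box was present in 6 of the 43 windows (14%), those of CCNG2, BAX, BBC3, AEN and EDA2R, compared with 7.26% of all windows. The BAX slice is shown because it holds 4 E-boxes, in capitals, the first 138 and the last 14 bases before the gene start, and the CCNG2 slice because CCNG2 moved against most members:
BAX (chr19:48954710-48954893, plus strand): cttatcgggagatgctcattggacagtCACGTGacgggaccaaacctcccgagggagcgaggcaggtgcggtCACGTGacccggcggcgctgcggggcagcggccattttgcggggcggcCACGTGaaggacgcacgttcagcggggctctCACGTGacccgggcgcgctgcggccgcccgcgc
CCNG2 (chr4:77157150-77157209, plus strand): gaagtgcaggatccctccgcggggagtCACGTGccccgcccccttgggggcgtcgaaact

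The targeted gene ARNTL gave 3.36 to 6.49 CPM (median 4.75) of total RNA in knockdown libraries, against 14.3 to 47.9 CPM (median 32.7) in wild-type libraries, with no overlap. CPM, the unit of every level below, is a gene's reads per M (mega) reads of its library after scaling between libraries. Total RNA libraries held 13.6 to 20.1 M reads in 46 of 48 cases. The knockdown libraries of replicate 2 at CT 14 and CT 18 held 2.66 and 2.56 M, and footprint libraries held 2.50 to 5.82 M. The osteoblast and mesenchymal markers summed to 3515 to 4270 CPM in knockdown and 3090 to 3543 CPM in wild-type total RNA, with 2 of 8 markers averaging 3 reads or fewer. Among 4 blood markers, 2 averaged 3 reads or fewer in total RNA, and the sum was 9.84 to 17.6 CPM in knockdown and 1.57 to 3.38 CPM in wild-type libraries. Most of it came from CD68, a lysosomal gene. Sums in knockdown and wild-type total RNA were 7.67 to 15.3 and 7.35 to 23.7 CPM over 4 epithelial markers, and for 4 neuronal markers the median sums were 349.9 and 304 CPM. The part of these marker differences in the results below was not tested. The labels do not say whether replicates came from separate cultures, so the p-values cover the variation among these libraries, which may be technical, and the 12 times of a replicate series enter as separate samples.

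Most p53 targets were higher in knockdown cells, in RNA and in footprints. Of the 39 members, 36 passed the filter on low counts in total RNA, and all 36 were called (limma adjusted p under 0.05). Of these, 32 rose and 4 fell. The same comparison called 81.7% of all 13188 genes tested, 41.8% higher and 39.9% lower, so a call by itself says little about a member. The size and direction differed more: 15 of 36 members rose at least 2-fold, compared with 4.43% of all genes, and none fell as much (2.59% of all genes). The 15 include GDF15, which passed the filter only through its knockdown libraries and is not independent support. The members' median log2 difference was 0.80, with 0.01 over all genes tested. In 27 members every knockdown library lay above every wild-type library, which held for 9.98% of all genes, and in CCNG1 every one lay below (9.96%). All 32 members that rose were higher at each of the 12 times. They were picked by their mean over these same times, and the share of all genes called higher that did so is not given. This is therefore not separate support. In a bulk sample, more cells with a transcript and more transcript per cell cannot be told apart.

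In footprints 34 members passed the filter and all 34 were called, 30 higher and 4 lower, where 75.5% of 11189 genes were called, 37.4% higher and 38.1% lower. At least 2-fold rises were seen in 15 members (3.95% of all genes) and none fell 2-fold (3.41%). GDF15, which passed the filter only through its knockdown libraries, is again among the 15 and is not independent support. The median was 0.82, with -0.01 over all genes. No member moved in opposite directions in the assays: 30 rose in both and 4 fell in both. Of the 34, 21 had every knockdown footprint library above every wild-type one (6.28% of all genes) and none had every one below (5.66%). With the scaling deposited by the authors, 30 members rose and 3 fell, and 61.4% of all footprint calls were higher in knockdown, compared with 49.5% here. The plot of effects by role shows both assays beside each other.

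**Figure D1:**
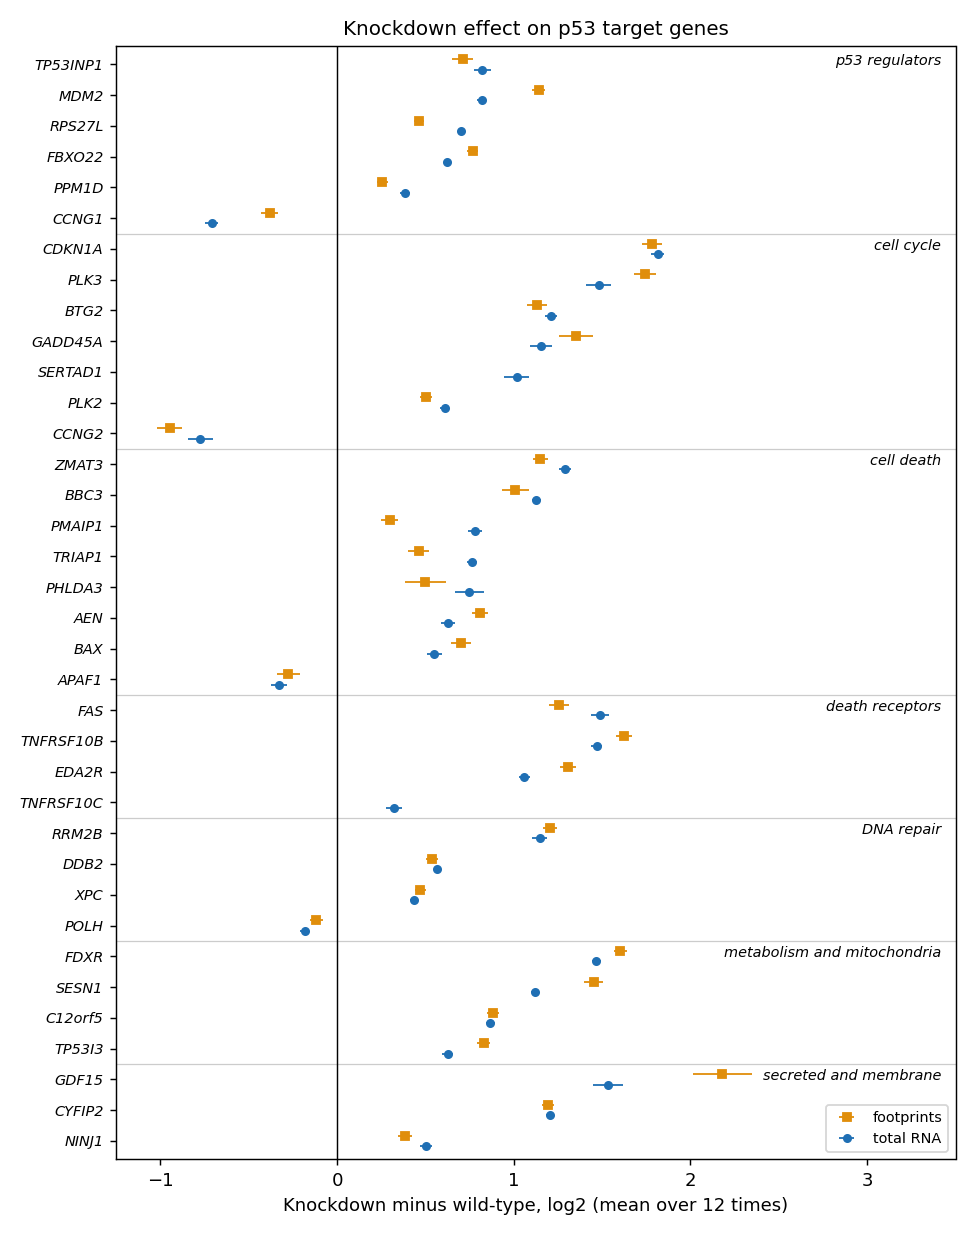
Difference between knockdown and wild-type cells for the 36 tested p53 targets, as the mean over 12 times on the log2 scale, grouped by role (circles, total RNA; squares, footprints; bars, SE from the limma fit). CDKN1A leads in total RNA at 1.81. In footprints GDF15, which passed the filter through its knockdown libraries, leads at 2.18. CCNG1, CCNG2, APAF1 and POLH lie left of zero.

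Among the 6 members that act on p53 itself, 5 rose and CCNG1 fell, in both assays. MDM2, the ligase that marks p53 for degradation, gave 556 to 804 CPM (median 699) in knockdown libraries, against 356 to 451 CPM (median 385) in wild-type libraries. Its footprints were 239.8 to 483 CPM (median 375) in knockdown libraries, against 136 to 199.7 CPM (median 167) in wild-type libraries. The groups did not overlap in either assay, and the log2 difference was 0.82 ± 0.03 in total RNA (SE, limma adjusted p = 4.30e-24) and 1.14 ± 0.04 in footprints (limma adjusted p = 1.29e-27). RPS27L, a ribosomal protein paralogue reported to bind MDM2, had total RNA of 589 to 740.0 CPM (median 678) in knockdown libraries, against 385 to 427 CPM (median 412) in wild-type libraries. Footprints of RPS27L were 533 to 713 CPM (median 652) in knockdown libraries, against 383 to 532 CPM (median 461) in wild-type libraries. Again the groups stood apart, by 0.70 ± 0.02 in total RNA and 0.47 ± 0.03 in footprints, though its level is uncertain if reads were shared with its paralogue RPS27, which was not tested. TP53INP1, which helps phosphorylate p53, rose by 0.82 ± 0.05 in total RNA and 0.71 ± 0.06 in footprints, FBXO22, a ubiquitin ligase subunit that targets p53, by 0.62 ± 0.02 and 0.77 ± 0.03, and PPM1D, a phosphatase that switches p53 signalling off, by 0.39 ± 0.03 and 0.26 ± 0.03. CCNG1 encodes cyclin G1, which brings a phosphatase to MDM2. Its total RNA was 232 to 345 CPM (median 294) in knockdown libraries, against 394 to 581 CPM (median 478) in wild-type libraries, so that all knockdown libraries lay below all wild-type ones. In footprints it gave 90.8 to 138 CPM (median 105) in knockdown libraries, against 108 to 173 CPM (median 142) in wild-type libraries, with overlapping groups. CCNG1 fell by 0.71 ± 0.04 on the log2 scale in total RNA (limma adjusted p = 5.68e-18) and by 0.38 ± 0.05 in footprints (limma adjusted p = 3.22e-09).

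Of the 7 cell cycle members, 6 rose in total RNA, 5 of them at least 2-fold. CDKN1A, the inhibitor of cyclin-dependent kinases that carries out much of the p53 arrest, stood at 608 to 824 CPM (median 759.9) in knockdown libraries, against 179 to 241 CPM (median 214) in wild-type libraries. Footprints on CDKN1A were 512 to 797 CPM (median 669) in knockdown libraries, against 139.9 to 252 CPM (median 194) in wild-type libraries. Neither assay showed overlap, and the difference was 1.81 ± 0.04 in total RNA (3.52-fold, limma adjusted p = 4.19e-27) and 1.78 ± 0.06 in footprints (3.44-fold, limma adjusted p = 7.55e-21). BTG2, an antiproliferative partner of the mRNA deadenylase complex, had 101 to 134 CPM (median 115) in knockdown libraries, against 41.5 to 59.4 CPM (median 51.1) in wild-type libraries. Its footprints, 54.6 to 91.7 CPM (median 70.6) in knockdown libraries, against 20.5 to 40.4 CPM (median 33.3) in wild-type libraries, were likewise apart. The log2 differences of BTG2 were 1.21 ± 0.03 and 1.13 ± 0.06. PLK2, a polo-like kinase, gave 179 to 231 CPM (median 199.6) in knockdown libraries, against 105 to 163 CPM (median 131) in wild-type libraries, without overlap. In footprints the PLK2 groups overlapped, at 183 to 250.1 CPM (median 211) in knockdown libraries, against 113 to 198 CPM (median 151) in wild-type libraries. PLK2 rose by 0.61 ± 0.02 in total RNA and 0.51 ± 0.03 in footprints, less than its relative PLK3, which rose by 1.48 ± 0.07 and 1.74 ± 0.06. GADD45A, a stress sensor of the G2 to M transition, rose by 1.16 ± 0.06 and 1.35 ± 0.10. SERTAD1, a regulator of CDK4, rose by 1.02 ± 0.07 in total RNA, with a median of 1496.5 reads per knockdown library and 732.5 per wild-type library. It had no footprint read in any of the 48 footprint libraries and could not be tested there, and why was not tested. CCNG2, cyclin G2, which is tied to withdrawal from the cell cycle, went the other way. Its total RNA of 32.5 to 49.8 CPM (median 39.4) in knockdown libraries, against 45.1 to 95.5 CPM (median 70.1) in wild-type libraries, overlapped, with 21 of 24 knockdown libraries below every wild-type library. The footprints of CCNG2 were 14.8 to 29.9 CPM (median 21.96) in knockdown libraries, against 27.4 to 62.0 CPM (median 40.7) in wild-type libraries. CCNG2 fell by 0.77 ± 0.07 in total RNA (limma adjusted p = 3.10e-11) and by 0.95 ± 0.07 in footprints (limma adjusted p = 2.10e-15), at all 12 times in both.

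**Figure D2:**
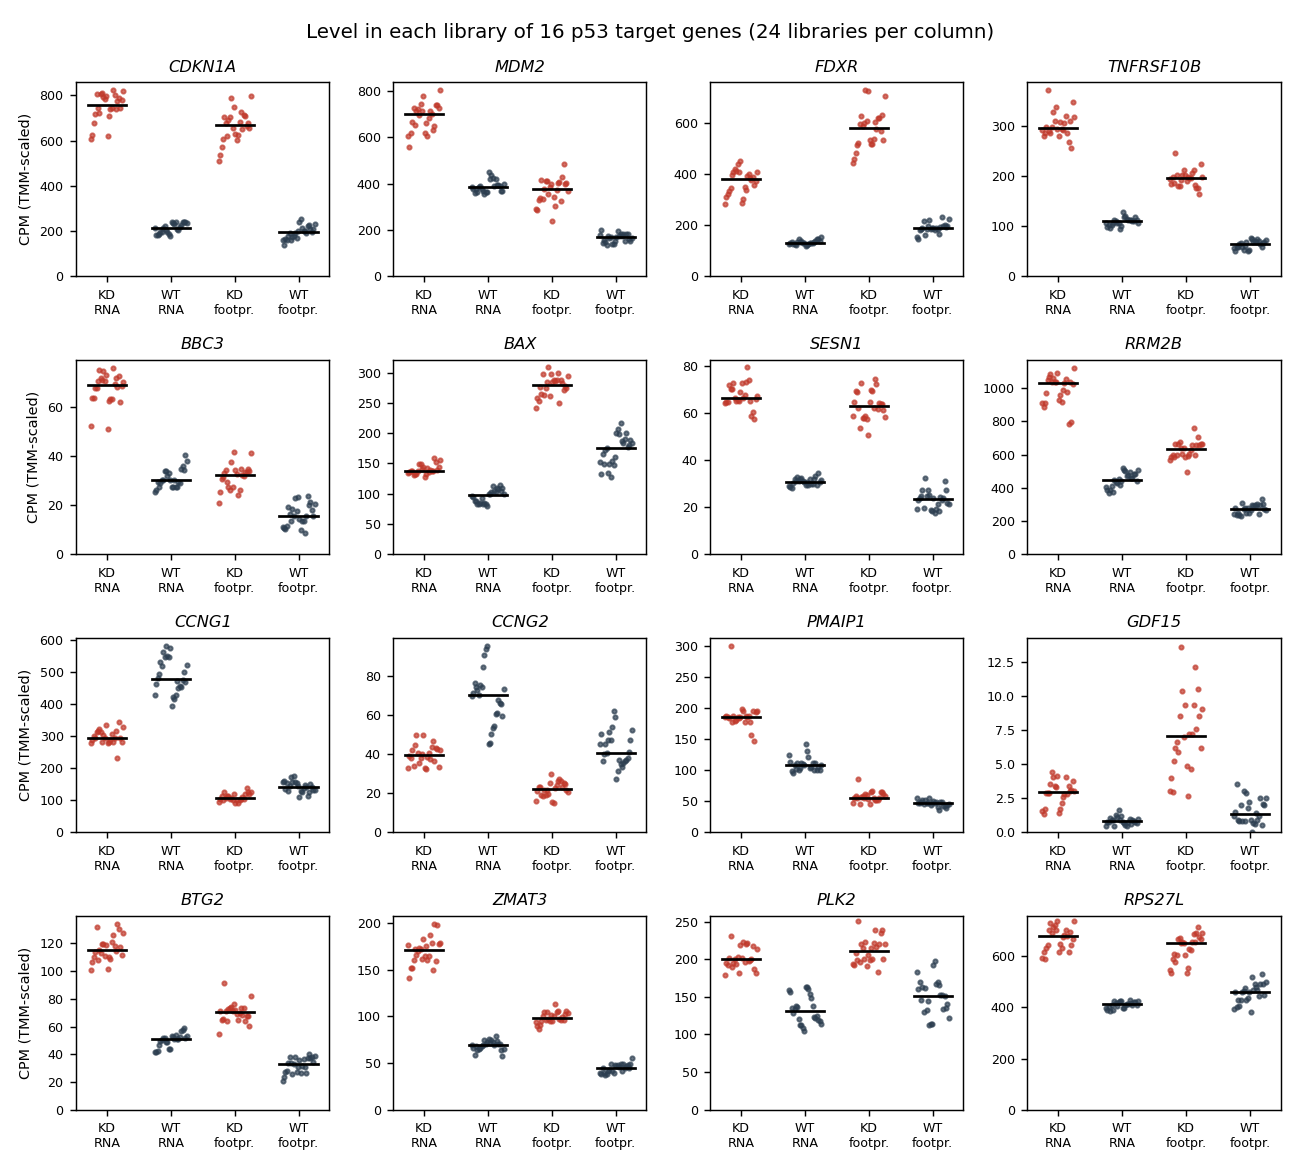
Level of 16 p53 targets in every library, in CPM, for knockdown (KD, left of each pair) and wild-type (WT) cells, in total RNA and in footprints (points, 24 libraries per column, replicate 1 and then replicate 2, each in time order; black lines, medians). CCNG1 and CCNG2 are lower in knockdown cells, and the other 14 genes are higher, most without overlap.

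Among the 8 members that act inside the cell death pathway, 7 rose and APAF1 fell. BBC3 (PUMA), which neutralises the survival members of the BCL2 family, gave 50.9 to 75.6 CPM (median 69.0) in knockdown libraries, against 25.1 to 40.1 CPM (median 30.0) in wild-type libraries. Its footprints, at 20.9 to 41.5 CPM (median 32.2) in knockdown libraries, against 8.51 to 23.5 CPM (median 15.4) in wild-type libraries, overlapped only through a knockdown library at the low end. BBC3 rose by 1.13 ± 0.03 in total RNA (limma adjusted p = 3.03e-27) and 1.01 ± 0.08 in footprints (limma adjusted p = 1.92e-15). BAX, which opens the mitochondrial outer membrane, had 128 to 158 CPM (median 138) in knockdown libraries, against 79.0 to 115 CPM (median 97.2) in wild-type libraries. BAX footprints were 242 to 309 CPM (median 280.4) in knockdown libraries, against 127 to 216 CPM (median 176) in wild-type libraries. These groups did not overlap, and the rises were 0.55 ± 0.04 and 0.70 ± 0.06. PMAIP1 (NOXA), another activator of this step, stood at 146 to 299 CPM (median 186) in knockdown libraries, against 94.5 to 142 CPM (median 108) in wild-type libraries. In footprints it was 44.7 to 85.9 CPM (median 55.4) in knockdown libraries, against 35.6 to 55.5 CPM (median 47.1) in wild-type libraries, with overlap. Its rise was 0.78 ± 0.04 in total RNA and 0.30 ± 0.05 in footprints, where the difference was -0.20 at CT 0 and positive at the other 11 times. ZMAT3, an RNA-binding zinc finger protein, had 141 to 199.6 CPM (median 171) in knockdown libraries, against 58.0 to 79.0 CPM (median 69.7) in wild-type libraries. Footprints on ZMAT3 were 86.7 to 113 CPM (median 98.2) in knockdown libraries, against 37.6 to 55.4 CPM (median 44.8) in wild-type libraries, and neither assay overlapped. ZMAT3 rose by 1.29 ± 0.03 and 1.15 ± 0.04. Rises in total RNA and footprints were 0.76 and 0.46 in TRIAP1, an inhibitor of apoptosis, 0.63 and 0.81 in the nuclease AEN, and 0.75 and 0.50 in PHLDA3, a repressor of AKT. The footprint call of PHLDA3 was lost without replicate 1 (limma adjusted p = 0.154). APAF1, the scaffold of the apoptosome, had 26.2 to 38.1 CPM (median 32.5) in knockdown libraries, against 33.6 to 48.6 CPM (median 40.1) in wild-type libraries. Its footprints were 19.1 to 37.9 CPM (median 28.1) in knockdown libraries, against 24.3 to 45.1 CPM (median 33.8) in wild-type libraries, and the groups overlapped in both assays. APAF1 fell by 0.33 ± 0.05 in total RNA (limma adjusted p = 1.02e-07) and by 0.27 ± 0.07 in footprints (limma adjusted p = 3.11e-04), where the value without replicate 1 was -0.05 (limma adjusted p = 0.568). With each replicate series first averaged over its times, the footprint value of APAF1 was -0.27 and not called (limma adjusted p = 0.0748).

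Death receptors sit on the cell surface and start apoptosis when bound by their ligands. TNFRSF10B, a TRAIL receptor with a death domain, gave 257 to 371 CPM (median 296) in knockdown libraries, against 93.7 to 127 CPM (median 110.3) in wild-type libraries. Its footprints were 165 to 246 CPM (median 196) in knockdown libraries, against 49.7 to 76.3 CPM (median 64.8) in wild-type libraries. With no overlap in either assay, it rose by 1.47 ± 0.03 (2.77-fold, limma adjusted p = 1.32e-28) in total RNA and 1.62 ± 0.05 (3.08-fold, limma adjusted p = 1.90e-29) in footprints. FAS rose by 1.49 ± 0.05 in total RNA and 1.26 ± 0.06 in footprints, and EDA2R, a receptor for ectodysplasin, by 1.06 ± 0.03 and 1.31 ± 0.05, also without overlap. The decoy receptor TNFRSF10C, which lacks a death domain, gave 6.10 to 10.7 CPM (median 7.81) in knockdown libraries, against 4.76 to 7.83 CPM (median 6.19) in wild-type libraries, and rose by 0.32 ± 0.05. Its footprints were too few to test, with 65 reads over the 24 knockdown and 82 over the 24 wild-type libraries. The other two TRAIL receptors in the list were near the limit of detection in total RNA. TNFRSF10A, which also has a death domain, had 1 read over all knockdown libraries and 1 over all wild-type libraries, and TNFRSF10D had 18 and 1. Reads of these closely related receptors may be split between them.

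Of the 4 DNA repair members, 3 rose. RRM2B, a ribonucleotide reductase subunit that supplies nucleotides for repair, gave 786 to 1124 CPM (median 1029.8) in knockdown libraries, against 368 to 519.6 CPM (median 448) in wild-type libraries. Footprints on RRM2B were 495 to 763 CPM (median 634) in knockdown libraries, against 229 to 332 CPM (median 274) in wild-type libraries. All knockdown libraries lay above all wild-type ones in both assays, by 1.15 ± 0.04 and 1.21 ± 0.04 (limma adjusted p = 1.48e-20 and 1.48e-27). DDB2 and XPC, which recognise ultraviolet damage for nucleotide excision repair, rose less. Differences were 0.57 ± 0.02 and 0.54 ± 0.04 in DDB2, the member with the paired half-sites shown above, and 0.43 ± 0.02 and 0.47 ± 0.03 in XPC. POLH, the polymerase that copies past ultraviolet lesions, had 106 to 136 CPM (median 119) in knockdown libraries, against 119 to 163 CPM (median 135) in wild-type libraries. Its footprints were 70.5 to 116 CPM (median 92.0) in knockdown libraries, against 82.7 to 131 CPM (median 98.5) in wild-type libraries, and both assays overlapped. POLH fell by 0.18 ± 0.02 in total RNA (limma adjusted p = 2.37e-08). In footprints the value was -0.12 ± 0.03 (limma adjusted p = 0.00246), but -0.02 with the deposited scaling (limma adjusted p = 0.625), -0.11 without replicate 1 (limma adjusted p = 0.0515) and -0.13 without replicate 2 (limma adjusted p = 0.0681). The footprint call of POLH was thus lost under each of these.

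The metabolic members rose in each of the 4 that could be tested. FDXR, the mitochondrial reductase that feeds electrons to ferredoxin, gave 282 to 449.7 CPM (median 381) in knockdown libraries, against 117 to 154 CPM (median 131) in wild-type libraries. Its footprints were 440.1 to 727 CPM (median 580.5) in knockdown libraries, against 145 to 231 CPM (median 189) in wild-type libraries. FDXR rose by 1.47 ± 0.02 in total RNA (2.77-fold, limma adjusted p = 2.11e-31) and 1.60 ± 0.04 in footprints (3.04-fold, limma adjusted p = 8.51e-33), with the groups well apart. SESN1, a sestrin that restrains mTORC1 signalling, had 57.3 to 79.2 CPM (median 66.2) in knockdown libraries, against 28.2 to 34.3 CPM (median 30.7) in wild-type libraries. SESN1 footprints were 50.5 to 74.5 CPM (median 62.8) in knockdown libraries, against 17.6 to 32.1 CPM (median 23.4) in wild-type libraries, and no libraries overlapped. The rises of SESN1 were 1.12 ± 0.02 and 1.45 ± 0.05. C12orf5 (TIGAR), which lowers glycolytic flux, rose by 0.87 ± 0.03 and 0.88 ± 0.03, and TP53I3, a quinone oxidoreductase, by 0.63 ± 0.03 and 0.83 ± 0.04. SPATA18, a mitochondrial quality control gene, had 12 reads over the knockdown and 18 over the wild-type total RNA libraries and was not tested.

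The secreted factor GDF15, a stress hormone of the TGF-beta family, was weakly expressed but rose strongly. Its total RNA was 1.32 to 4.43 CPM (median 2.94) in knockdown libraries, against 0.399 to 1.64 CPM (median 0.787) in wild-type libraries, with 21 of 24 knockdown libraries above every wild-type library. Footprints on GDF15 were 2.64 to 13.6 CPM (median 7.08) in knockdown libraries, against 0 to 3.53 CPM (median 1.29) in wild-type libraries, and 7 of the 24 wild-type libraries held 3 reads or fewer. GDF15 rose by 1.53 ± 0.08 in total RNA (limma adjusted p = 1.90e-17) and 2.18 ± 0.17 in footprints (limma adjusted p = 2.58e-15), values that the pseudocount of 0.25 CPM makes smaller than the true ratio. In wild-type libraries alone GDF15 did not pass the filter on low counts. It thus entered these tests, and that of efficiency, through the knockdown libraries, where it was high. Its p-values and its place among the 2-fold rises are therefore not independent support. CYFIP2, a subunit of the complex that drives actin branching, rose by 1.21 ± 0.02 and 1.19 ± 0.04 without overlap, and NINJ1, a membrane protein of lytic cell death, by 0.50 ± 0.03 and 0.38 ± 0.04.

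By their RefSeq spans, 12 members overlap another protein-coding gene. Whether reads were counted by strand is not given in the sources used here. These are MDM2, CCNG1, FBXO22, TP53INP1, PLK3, APAF1, FAS, TNFRSF10B, POLH, SESN1, TP53I3 and CYFIP2, and their reads may include some of the partner's.

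Among listed regulators of p53, only the 3 with the largest change in total RNA are given. The rest of the list is not described, so these 3 do not show how the regulators moved as a group. Of all genes tested in total RNA, 39.9% were called lower. MDM4, the partner of MDM2 that blocks p53 activity, had 39.2 to 54.0 CPM (median 47.4) in knockdown libraries, against 68.0 to 94.1 CPM (median 78.1) in wild-type libraries. MDM4 fell by 0.74 ± 0.04 in total RNA and by 1.41 ± 0.09 in footprints, with no overlap in either assay. In total RNA, differences were also negative and called in TP73, a p53 relative (-0.92 ± 0.06), and CHEK1, a checkpoint kinase (-0.70 ± 0.03).

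Other reported p53 targets outside the 39 also rose more often than they fell. Of 55 tested, 49 rose and 3 fell in total RNA, with a median of 0.69, and 13 rose at least 2-fold, beside 41.8%, 39.9% and 4.43% of all genes. In footprints 48 of 54 rose and 4 fell, with a median of 0.79, beside 37.4% and 38.1% of all genes. CD82, a tetraspanin, gave 34.8 to 59.2 CPM (median 49.1) in knockdown libraries, against 8.74 to 18.4 CPM (median 13.9) in wild-type libraries. Its rise was 1.83 ± 0.09, that of DRAM1, an autophagy regulator, 1.57 ± 0.03, and that of ACER2, a ceramidase, 1.53 ± 0.04. Genes known to be repressed through CDKN1A and the DREAM complex went down, and whether this route lowered them was not tested. All 14 fell in both assays, with medians of -0.81 in total RNA and -0.86 in footprints, where 39.9% and 38.1% of all genes were called lower. E2F1, an activator of S phase genes, had 43.1 to 94.1 CPM (median 66.1) in knockdown libraries, against 120.3 to 169 CPM (median 151) in wild-type libraries, a fall of 1.16 ± 0.03. CCNA2 (cyclin A2) and CDC25C, an activator of CDK1, fell by 1.12 ± 0.03 and 0.94 ± 0.07.

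Translational efficiency, here footprints divided by total RNA for the same gene, was called different in 18 of the 34 testable members, 11 higher and 7 lower in knockdown. The 11 include GDF15, which passed the filter only through its knockdown libraries. Over all 11149 genes tested, 31.1% were called, 13.1% higher and 18% lower. No member changed at least 2-fold, as did 0.0628% of all genes upward and 0.135% downward. The members' median was 0.03, with -0.01 over all genes, and it joins changes in both directions. Beside the difference in RNA the change was not small in every member. It was -0.48 beside 0.78 in PMAIP1, 0.33 beside -0.71 in CCNG1 and -0.30 beside 0.76 in TRIAP1, but -0.03 beside 1.81 in CDKN1A. Efficiency was higher for MDM2 by 0.32 ± 0.05 (limma adjusted p = 1.01e-07), CCNG1 by 0.33 ± 0.06 (limma adjusted p = 3.04e-05), SESN1 by 0.33 ± 0.06 (limma adjusted p = 5.73e-06) and GDF15 by 0.65 ± 0.19 (limma adjusted p = 0.00722). For MDM2, CCNG1 and SESN1 this held at each of the 12 times. The efficiency difference of GDF15 was 0.41 without replicate 2, where it was not called. Without replicate 1 GDF15 did not pass the filter, and its wild-type footprint libraries held a median of 5.5 reads. The other members called higher, by 0.14 to 0.26, were PLK3, EDA2R, TP53I3, AEN, TNFRSF10B, FBXO22 and FDXR. PMAIP1 had the largest fall among members, -0.48 ± 0.06 (limma adjusted p = 1.12e-08), negative at all 12 times. TRIAP1 (-0.30 ± 0.07), RPS27L (-0.24 ± 0.03), FAS (-0.23 ± 0.08), ZMAT3 (-0.14 ± 0.05), PPM1D (-0.13 ± 0.04) and PLK2 (-0.10 ± 0.04) were also called lower. The remaining 16, CDKN1A at -0.03 ± 0.07 among them, did not pass the test. With the replicate block, BAX (limma adjusted p = 0.0201) and NINJ1 (limma adjusted p = 0.0438) were called as well. These calls rest on treating the 12 times as separate samples. Each replicate series was also first averaged over its times, leaving 2 values per treatment and assay. This left 1 call, that of PMAIP1 (limma adjusted p = 0.0301), and the share of all genes called from these means is not given. With the deposited scaling, 17 members were called higher and 3 lower, and 80.4% of all efficiency calls were higher, compared with 42.1% here. The median over all genes was then 0.09.

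**Figure D3:**
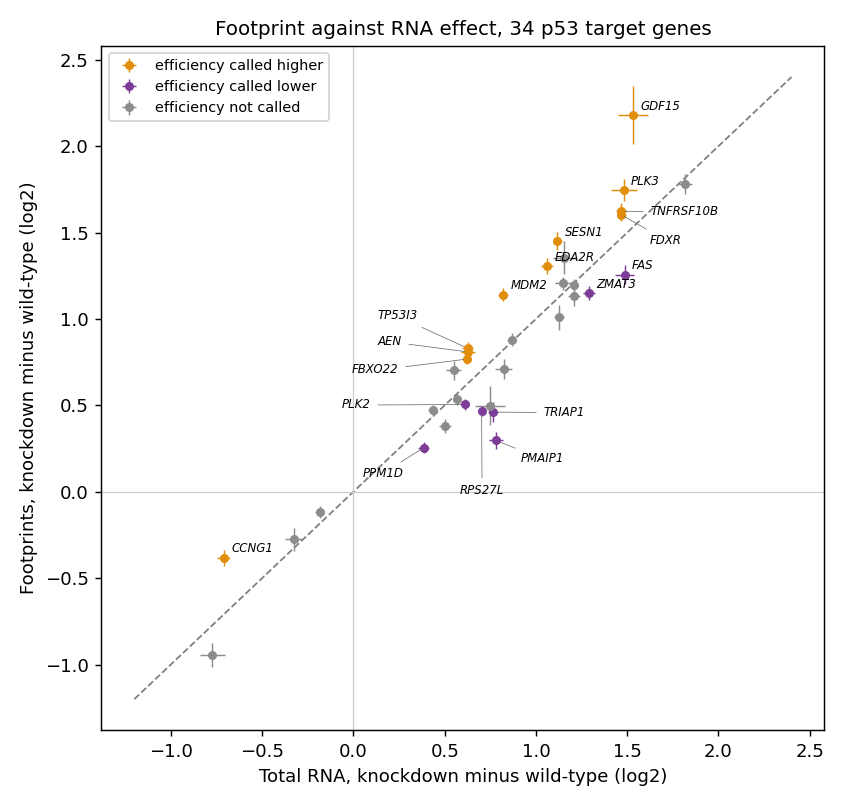
Footprint difference against total RNA difference between knockdown and wild-type cells, both log2, for the 34 members tested in both assays (bars, SE; dashed line, equal differences). Members with higher efficiency, such as SESN1 and MDM2, lie above the line, and those with lower efficiency, PMAIP1 farthest, lie below it. GDF15 also lies above it but rests on few wild-type reads.

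The rise of the p53 targets was present from the first collection, but for many it was smallest there. Over the 32 members that rose in total RNA, the median log2 difference was 0.63 at CT 0, 0.74 at CT 2 and CT 4, 1.04 at CT 8, 0.81 at CT 12, 0.82 at CT 14, 0.84 at CT 18 and 1.06 at CT 22. It thus did not climb steadily. The knockdown total RNA replicates at CT 8 differed from each other more than at any other knockdown time (chi-square per degree of freedom 8.76). Wild-type total RNA replicates differed by 8.44 to 10.8 on this measure over the 12 times. In 18 of the 32 (56.2%) the smallest of the 12 differences was at CT 0, compared with 17.4% of the 5519 genes called higher. In footprints this held for 8 of 30 (26.7%), compared with 10.6%. CDKN1A showed 608 and 619 CPM in the knockdown replicates at CT 0, and 809 and 824 CPM at CT 8. Wild-type CDKN1A had 214 and 239.7 CPM at CT 0, and 196 and 211 CPM at CT 8. The difference was thus 1.44 at CT 0 and 2.01 at CT 8. PLK2 had a difference of 0.24 at CT 0, 0.60 at CT 12 and 0.99 at CT 22. Leaving out CT 0, an alternative added after seeing the data, gave 36 calls in total RNA, 32 higher and 4 lower.

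**Figure D4:**
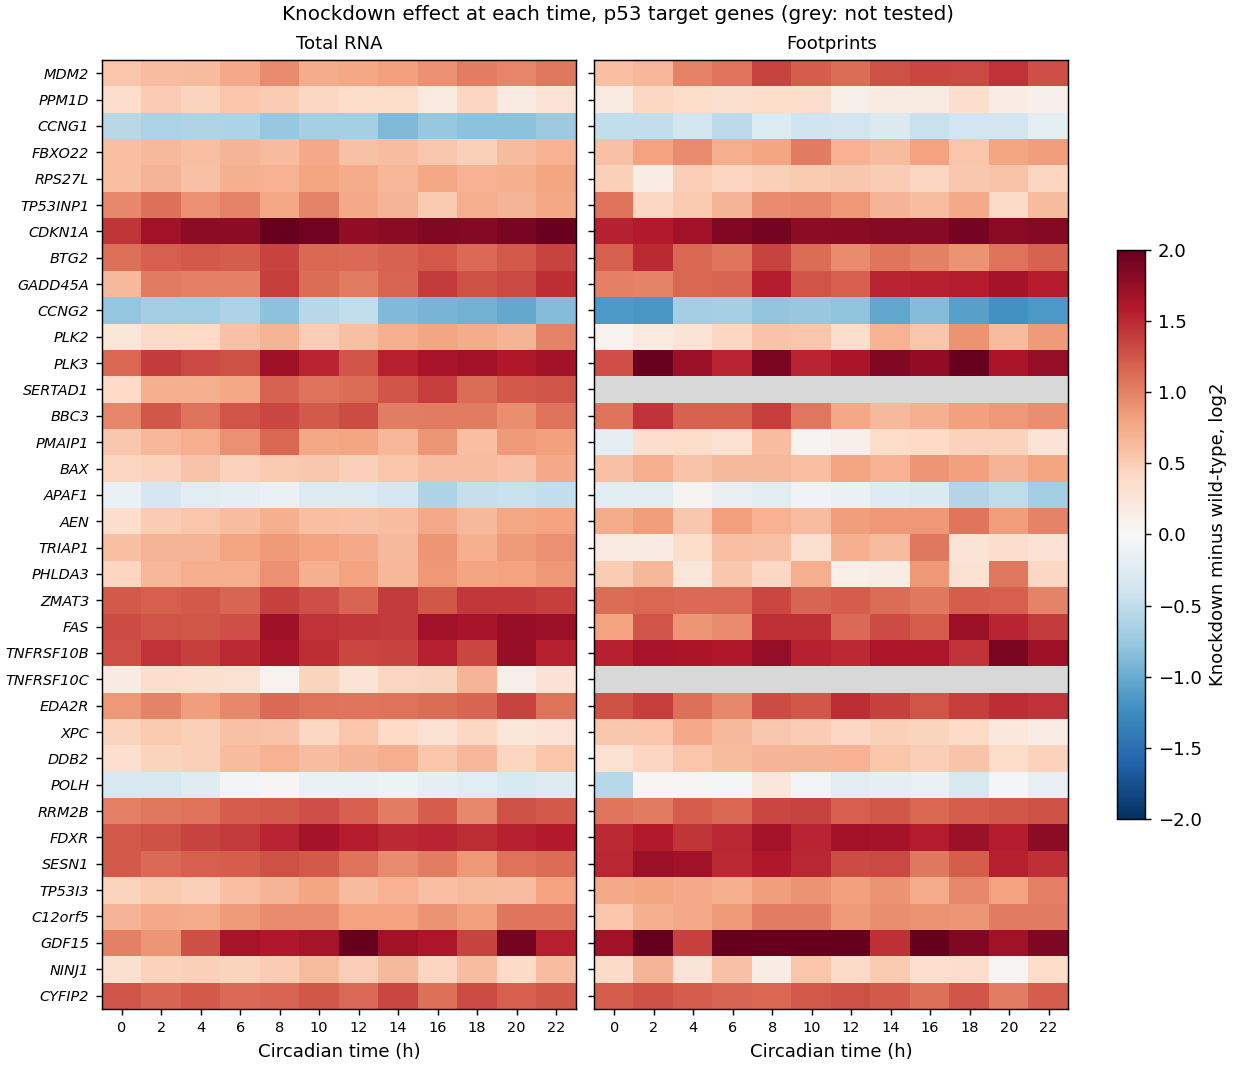
Difference between knockdown and wild-type cells at each of the 12 circadian times (columns, h) for the 36 tested p53 targets (rows), in total RNA and in footprints, as log2 on a scale that saturates at 2 in either direction. Rises run through all times in most rows, the left column of the total RNA panel is often the palest, and grey rows had too few footprints to test.

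Within each treatment, a 24 h wave was fitted to ask which members varied over the day. In knockdown total RNA 18 of 36 tested members were called (33.9% of all genes), with amplitudes, from the mean to the peak, of 0.06 to 0.48 log2. The peak lay between CT 12 and CT 24 in 12 of them. In wild-type total RNA 11 of 35 were called (22.5% of all genes), with amplitudes of 0.07 to 0.35. With the replicate number as a block the wild-type count was 18. In footprints 11 of 34 members were called in knockdown (18.2% of all genes) and 3 of 33 in wild-type cells (7.01%). GDF15 in knockdown cells had the widest wave, 0.48 ± 0.09 with a peak at CT 14.5 (limma adjusted p = 5.53e-04) in total RNA and 0.65 ± 0.11 in footprints. It could not be tested in wild-type cells. In wild-type total RNA TP53INP1 led with 0.35 ± 0.06 and a peak at CT 16.4 (limma adjusted p = 0.00133), and it was also called in knockdown cells, at 0.15 ± 0.04 and CT 16.7. In wild-type footprints BBC3 had the widest wave (0.40 ± 0.08). BBC3 varied by 0.13 ± 0.03 in knockdown and 0.19 ± 0.03 in wild-type total RNA, and CYFIP2 by 0.19 ± 0.04 and 0.18 ± 0.03. CDKN1A was called in knockdown cells only (0.10 ± 0.03), but the test of the difference between treatments did not pass (limma adjusted p = 0.514). For the peak times and the alternative fits, the share of all genes is not given. Those counts are therefore not read as a result about the members. A single day cannot separate a wave from a drift. With a linear drift in the fit, 6 members were called in knockdown total RNA (CDKN1A, BBC3, DDB2, POLH, FDXR and GDF15), 2 in knockdown footprints (DDB2 and POLH) and none in wild-type cells in either assay. Without replicate 1 the knockdown counts were 2 in total RNA and 3 in footprints, and without replicate 2 they were 13 and 6.

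The test of the difference in wave between treatments called 6 of 36 members in total RNA (10.9% of all genes), PLK2, MDM2, SESN1, DDB2, POLH and XPC, and 1 of 34 in footprints (3.85% of all genes), XPC. PLK2 total RNA declined through the day in wild-type cells, where its wave peaked at CT 4.9 (0.20 ± 0.04), and its knockdown wave was 0.04 ± 0.03 and not called. The difference wave of PLK2 was 0.17 ± 0.05 (limma adjusted p = 0.0367). MDM2 varied in knockdown cells (0.10 ± 0.03, peak at CT 16.6), and its wild-type wave of 0.04 ± 0.02 was not called. DDB2 had a knockdown wave of 0.12 ± 0.02 with a peak at CT 12.2, beside 0.02 ± 0.02 in wild-type cells, not called. Of the 6, DDB2 and POLH passed also with a linear drift in the fit. Without replicate 1 the only call in total RNA was APAF1, and without replicate 2 the 4 calls were PPM1D, SERTAD1, POLH and TP53I3, so that POLH alone of the 6 was called in either. In footprints the only call without replicate 1 was DDB2, and without replicate 2 there was none. With the replicate block 12 members were called in total RNA, the 6 among them, and the share of all genes under this block is not given.

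**Figure D5:**
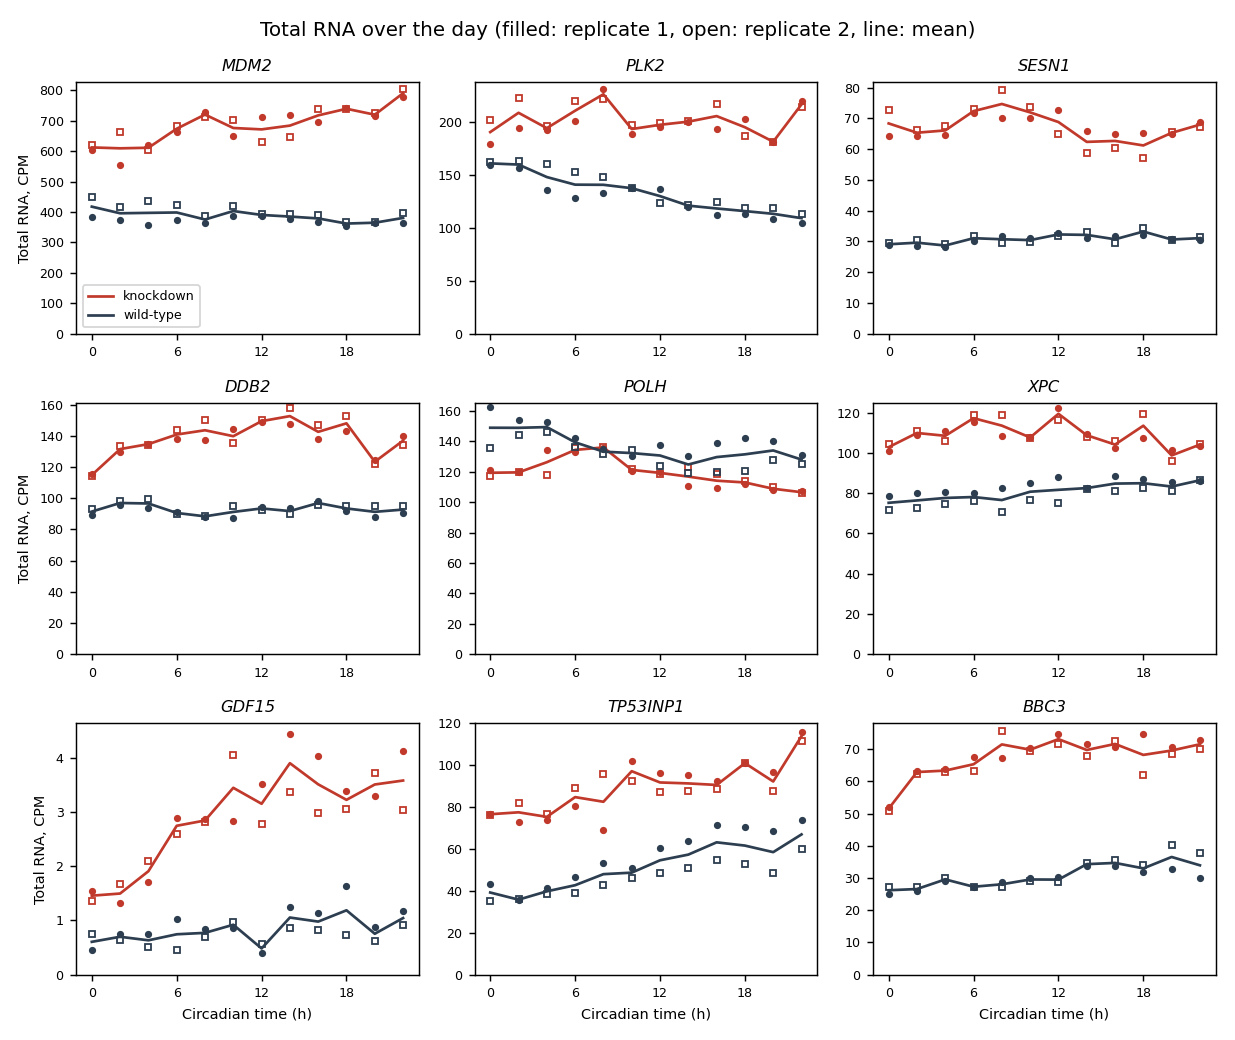
Total RNA of 9 p53 targets over the day, in CPM against circadian time in h, for knockdown and wild-type cells (filled circles, replicate 1; open squares, replicate 2; lines, means). PLK2 declines in wild-type cells, GDF15 climbs in knockdown cells between CT 0 and CT 14, and POLH curves meet at CT 8.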

How the data were processed

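Total RNA and ribosome footprints were sequenced from 96 libraries (48 groups of 2). The 8 deposited tables hold signal values per gene, which the authors made with STAR 2.3.0e, HTSeq 0.5.4p1 and DESeq2 (version not given) on GRCh37/hg19, per the submitters' processing notes; the role of each tool is not given. Every value was a whole multiple of 1 step per library (100%, tolerance 0.001), so whole reads were recovered, where 1 read stood for 0.368 to 2.82 units (total RNA) or 1.19 to 2.98 units (footprints). The design had named log2 tests for such values, and these were kept. Reads were scaled by TMM (edgeR 4.0.16, R 4.3.3), separately for each assay, filtered with filterByExpr (minimum count 10), put as log2(CPM + 0.25) and fitted in limma 3.58.1 with trend and robust variances, with 1 mean per treatment and time. The knockdown effect is the mean over 12 times, efficiency the assay interaction, and rhythm an F test of a 24 h cosine and sine. P-values were adjusted by Benjamini-Hochberg over all genes tested, with a threshold of 0.05. Fold changes on this scale understate those of low genes. The edgeR quasi-likelihood test on the recovered reads called 10852 genes in total RNA and 8465 in footprints, beside 10778 and 8444. Alternatives covered scaling, filter, pseudocount, left-out libraries, series means, a drift term and the replicate block. Replicate numbers paired the times within wild-type total RNA (r of deviations 0.32 to 0.57 in 66 pairs) but not knockdown with wild-type samples (r over 0.1 in 1 of 12). Within wild-type footprints 59 of 66 pairs of times were over 0.1, and total RNA and footprints of the same number and time in 12 of 12 wild-type and 7 of 12 knockdown pairs, for which the efficiency test has no term. Named genes were 16 listed members and those moving against the rest, every other tested member with at least 1 value, MDM4, and the 3 called genes with the largest change in each other list. A further gene of the rule is not reported here. Members and lists were chosen with earlier results of these data known.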

Additional observations from a re-analysis of the deposited data

Results flagged for a closer look

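The test of the difference in wave itself called 10.9% of all genes in total RNA and 3.85% in footprints. By this test the 24 h wave of total RNA differed between knockdown and wild-type cells in 6 of 36 members. That of footprints differed in 1 of 34, XPC, which is near the share of all genes. Of these, only POLH in total RNA was called with 1 replicate left out, and that without replicate 2; MDM2, PLK2, SESN1, DDB2 and XPC in total RNA, and XPC in footprints, were not called without replicate 1 or without replicate 2. Values are log2 amplitudes ± SE. MDM2 had a wave of 0.10 ± 0.03 (peak CT 16.6) in knockdown and 0.04 ± 0.02 (peak CT 5.5) in wild-type cells, and the difference wave had an amplitude of 0.14 (limma adjusted p = 0.0409). PLK2 had a wave of 0.04 ± 0.03 (peak CT 7) in knockdown and 0.20 ± 0.04 (peak CT 4.9) in wild-type cells, and the difference wave had an amplitude of 0.17 (limma adjusted p = 0.0367). SESN1 had a wave of 0.09 ± 0.03 (peak CT 6.6) in knockdown and 0.07 ± 0.02 (peak CT 14.9) in wild-type cells, and the difference wave had an amplitude of 0.14 (limma adjusted p = 0.0111). DDB2 had a wave of 0.12 ± 0.02 (peak CT 12.2) in knockdown and 0.02 ± 0.02 (peak CT 19.8) in wild-type cells, and the difference wave had an amplitude of 0.14 (limma adjusted p = 0.00627). POLH had a wave of 0.13 ± 0.02 (peak CT 7.1) in knockdown and 0.10 ± 0.03 (peak CT 2.7) in wild-type cells, and the difference wave had an amplitude of 0.13 (limma adjusted p = 0.0179). XPC had a wave of 0.07 ± 0.02 (peak CT 9.1) in knockdown and 0.08 ± 0.02 (peak CT 16.8) in wild-type cells, and the difference wave had an amplitude of 0.13 (limma adjusted p = 0.0164). In footprints, XPC had 0.07 ± 0.03 in knockdown and 0.10 ± 0.04 in wild-type cells, neither called on its own, with a difference wave of 0.17 (limma adjusted p = 0.0401).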

How the results depend on the processing

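The knockdown effect on total RNA kept its direction and call for all 36 members under all 11 alternatives (396 values, adjusted p at most 0.0278 with limma on series means), and 37 members passed without a filter. Footprint calls numbered 30 without replicate 1, 33 without replicate 2 and 32 from series means, and those lost under some alternative were POLH, APAF1 and PHLDA3. Without replicate 1, GDF15 did not pass the filter in footprints and has no value. Efficiency calls, 18 as reported, numbered 1 from series means, 13 without replicate 1 and 12 without replicate 2. The share of all genes called under these alternatives is not given. The counts therefore show how stable the members' calls were and are not read as a result about the members. Efficiency changed sign only in members without a call. CYFIP2 (-0.01 as reported) was 0.0034 with median-ratio scaling, 0.0078 without the 2 shallow libraries, 0.0071 without CT 0 (chosen after seeing the data), 0.088 with the deposited scaling, and -0.077 to 0.058 without 1 replicate. With the deposited scaling CDKN1A was 0.070, BTG2 0.024 and DDB2 0.071. Without 1 replicate CDKN1A ran over -0.065 to 0.0096, APAF1 over -0.015 to 0.13, DDB2 over -0.11 to 0.054 and RRM2B over -0.025 to 0.15.

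With a linear drift, knockdown total RNA had 6 calls, knockdown footprints 2, wild-type total RNA 0, wild-type footprints 0, and the change of rhythm 2 in total RNA and 0 in footprints. Without 1 replicate, calls ran over 2 to 13 in knockdown total RNA, 9 to 13 in wild-type total RNA, 3 to 6 in knockdown footprints, 0 to 1 in wild-type footprints, 1 to 4 for the change in total RNA and 0 to 1 for the change in footprints. With the replicate block, calls were 18 in wild-type total RNA, 5 in wild-type footprints, 12 for the change in total RNA and 4 for the change in footprints. The block changed no call of the knockdown effect on total RNA or footprints and gave 20 efficiency calls. Same-numbered knockdown and wild-type footprint samples correlated over 0.1 in 4 of 12 pairs. The change of rhythm in footprints had 3 calls with median-ratio scaling and 0 with the deposited scaling. The share of all genes called under these alternatives is not given, and the cause of these shifts was not tested.

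Depth limits the low members: TNFRSF10A, TNFRSF10D and SPATA18 in both assays, and TNFRSF10C in footprints, could not be tested, and GDF15 rests on few wild-type reads.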

Other observations

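Other stress and arrest pathways share genes with the p53 response, and their counts are given beside the 41.8% higher and 39.9% lower among all genes in total RNA, and 37.4% and 38.1% in footprints. Of 10 genes of the ATF4 and CHOP branch of the stress response, 2 rose and 8 fell in total RNA, with a median of -0.47. Those that rose were SESN2 (1.32 ± 0.05), which is also a p53 target and counted in that list too, and PPP1R15A (0.46 ± 0.04), which restores translation after stress and is named after its value was seen. ATF3, the other gene counted in both lists, fell. DDIT4, an inhibitor of mTORC1, and ASNS, asparagine synthetase, fell by 1.19 ± 0.10 and 1.14 ± 0.07. In footprints 2 of 9 rose and 7 fell, with a median of -0.76. Of 10 tested FOXO targets, 4 rose and 5 fell in total RNA, shares near those of all genes, with a median of -0.05. BCL2L11 (BIM), a killer protein of the BCL2 family, fell by 1.46 ± 0.07, PDK4, a brake on pyruvate oxidation, by 1.26 ± 0.12, and CDKN1B, an inhibitor of cyclin-dependent kinases, by 1.25 ± 0.04. CCNG2, among the 39 p53 targets, is also a known FOXO target, and it fell. Whether FOXO factors had a part in the fall of CCNG2 was not tested. In footprints 4 of 10 FOXO targets rose and 4 fell.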
